A study of Mus musculus with 5 samples.

Results

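The genes described here encode the translation initiation factors and the proteins that bind and restrain eIF4E. They are the 56 rows, of 46959 in each count table, whose gene symbol begins with Eif and a digit from 1 to 6, after 7 pseudogene rows with the suffix -ps were set aside. Total RNA was sequenced in 5 libraries of D4m.3a, a mouse melanoma cell line of the C57BL/6 strain that carries mutant Braf. The 3 caMNK libraries come from cells with a constitutively active MNK1, and the 2 pBABE libraries from control cells with the vector. Both lines were labelled as passages 7 to 12, and the labels do not say whether either is a single clone or a pool. Each genotype is 1 line, so what the kinase does and whatever else sets these lines apart cannot be told apart. The submitters call the libraries biological replicates but do not say what separated the cultures, and p-values cover the spread among these libraries only.

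Protein synthesis begins when eIF2, loaded with GTP and the initiator tRNA, joins eIF1, eIF1A, eIF3 and eIF5 on the small ribosomal subunit. The complex eIF4F, made of the cap-binding protein eIF4E, the scaffold eIF4G and the helicase eIF4A, brings that subunit to the capped end of an mRNA. 4E-binding proteins (4E-BPs) compete with eIF4G for the same face of eIF4E and are released from it when mTOR phosphorylates them. Kinases of the eIF2 alpha subunit and the exchange factor eIF2B set how fast eIF2 is recycled. MNK1 binds eIF4G and phosphorylates eIF4E on a single serine. This site is a modification of the protein, and RNA counts do not report on it.

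The coding sequences of these contact points show what the proteins share. They were read from GENCODE M21 transcripts on GRCm38 (mm10), the build of the files. The first stretch is from Eif4e (chr3:138555460-138555492, plus strand), and its capitals mark codon 209, the last serine of the protein and the one that MNK1 acts on. The other 3 hold the eIF4E-binding motif, a tyrosine followed 5 residues later by a leucine and then a bulky hydrophobic residue, with the tyrosine and leucine codons in capitals. It was found once in each of the 3 proteins, and its tyrosine is residue 53 of 4E-BP1, 54 of 4E-BP2 and 616 of eIF4G1. The stretches of Eif4ebp1 (chr8:27260550-27273372, plus strand) and Eif4ebp2 (chr10:61435054-61452402, minus strand) each cross an intron, and that of Eif4g1 (chr16:20681206-20681256, plus strand) lies in 1 exon.
Eif4e: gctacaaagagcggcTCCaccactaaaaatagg
Eif4ebp1: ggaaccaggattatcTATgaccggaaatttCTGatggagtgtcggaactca
Eif4ebp2: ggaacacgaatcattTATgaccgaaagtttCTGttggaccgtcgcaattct
Eif4g1: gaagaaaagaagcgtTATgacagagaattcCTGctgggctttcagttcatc

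The libraries held between 27827199 and 48794336 counts, and the members took 1.35%, 1.41% and 1.35% of the counts in caMNK, against 1.43% and 1.45% in pBABE. Values below are CPM, read counts scaled to a common library size with TMM-scaled totals. Mknk1, the gene of the introduced kinase, measured 167, 155 and 168 CPM in caMNK, against 15.2 and 16.7 CPM in pBABE, which fits the labels. Of the pigment cell markers, Dct and Tyrp1 had no count in any library, Mlana, Tyr and Sox10 stayed under 0.1 CPM on average, and Mitf, the most abundant, averaged 5.18 CPM in caMNK and 6.09 CPM in pBABE. The 8 markers of that lineage summed to 7.27 to 9.13 CPM in caMNK and 8.98 to 9.33 CPM in pBABE, so the labelled cell type is borne out by few of its defining genes. Markers of immune cells, red cells and keratinocytes each summed to under 0.5 CPM in each library. The 3 endothelial markers summed to 2.93 to 3.10 CPM in caMNK and 5.23 to 9.07 CPM in pBABE. Of these, Cdh5 fell (2.51 CPM in caMNK and 6.84 CPM in pBABE on average, edgeR adjusted p = 0.0141), Pecam1 was not called (0.454 CPM in caMNK and 0.220 CPM in pBABE, log2 fold change 1.07) and Kdr was under 0.15 CPM in each library. The 4 fibroblast markers summed to 123 to 159.5 CPM in caMNK and 208 to 211 CPM in pBABE. Of these, Col1a1 averaged 93.0 CPM in caMNK and 158 CPM in pBABE (log2 fold change −0.76, edgeR adjusted p = 0.0164), while Pdgfra (log2 fold change −0.24) and Dcn (0.38, higher in each caMNK library) were not called and Lum was under 0.1 CPM in each library. Mitochondrial mRNAs summed to 18762 to 21654 CPM in caMNK and 12284 to 13526 CPM in pBABE, with 6 of 10 tested called higher in caMNK, and the nuclear RNAs Malat1 and Neat1 had log2 fold changes of 1.22 and 1.34. The part of these marker and RNA-class differences in the results below was not tested. The counts cover whole gene bodies: the deposited length equalled the genomic span, introns included, for 40 of 56 members. It equalled the summed exons but not the span for 0. Reads in an overlap of 2 genes appear to be counted for both, since each of the 4 members that lie wholly inside another gene had fewer counts than that gene, and 14 members overlap a gene whose counts are 10% or more of their own. These 14 are said below to share reads with that gene, although the number of reads inside each overlap was not measured.

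A single initiation factor gene, Eif3c, differed between the lines at the threshold. Of the 56 members, 54 passed the filter on low counts. The other two had 0 counts in all 5 libraries: Eif4e1b, an eIF4E relative of the germ line, and Eif2c5, an older symbol of the Argonaute family that the rule takes in and that is no initiation factor. 1 member fell, Eif3c, and 0 rose (edgeR, adjusted p under 0.05 over all genes tested). This is 1.85% of the members, where 7.94% of all 17026 tested genes were called (4.42% rose and 3.52% fell). Over all tested genes, 753 rose and 599 fell, a split that became 997 and 466 with total-count scaling, where Eif4a2 and Eif4ebp3 passed as rises beside the fall of Eif3c (8.59% of all genes called). At an unadjusted p under 0.05 in the TMM-scaled fit, 2 members were higher and 7 lower. DESeq2 called 2 lower, Eif3c and Eif4ebp2, and 0 higher, and limma-voom called Eif3c alone, where 10% and 7.17% of all genes were called.

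The direction of the small differences was mostly downward. The fitted log2 fold change was negative for 44 of 54 members and their median was −0.10, beside 50.4% negative and a median of 0.00 over all tested genes. Where the mean log2 CPM was 5 or more, 61.8% of genes were negative, with a median of −0.05. With total-count scaling, 32 of 54 members were negative, beside 41.4% of all tested genes. The median was −0.042 for the members and 0.051 for all genes. The count of negative members thus depends on the scaling, while the members' median lay below that of all genes with either scaling. For 23 members (42.6%) the caMNK libraries did not overlap the pBABE libraries, against 44.9% of all tested genes. Of these, 4 members were higher and 19 lower, where 22.3% and 22.6% of all tested genes were. Most members are abundant, and abundant genes did not split evenly. Of the 6228 tested genes that averaged at least 5 in log2 CPM, 916 were higher without overlap and 1841 lower. The 47 members in that range had 3 higher and 17 lower, so part of the downward split is shared with other abundant genes. The 95% interval of the log2 fold change lay inside a 1.5-fold difference either way for 48 of 54 members (88.9%), close to the 87.0% of genes at a mean log2 CPM of 5 or more and above the 56.7% of all tested genes. The 6 whose interval reached past it were Eif3c, Eif4ebp1, Eif4ebp2, Eif4ebp3, Eif4g2 and Eif5a2.

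**Figure D1:**
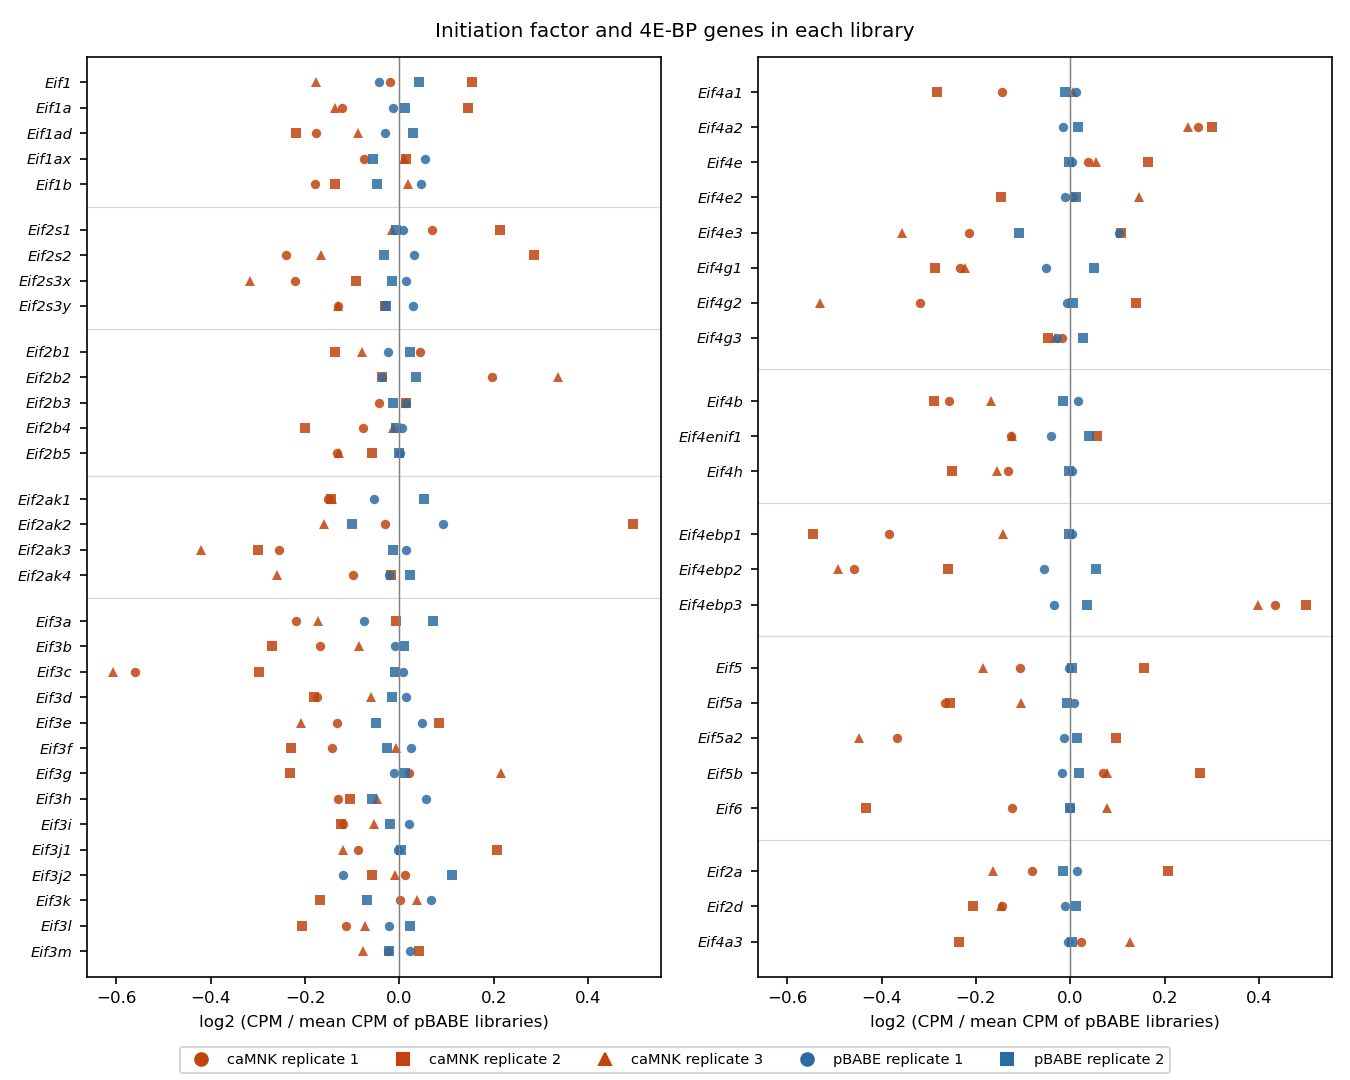
Each row is a tested gene, grouped by complex, and each point a library, placed by the log2 ratio of its CPM to the mean of the pBABE libraries (x axis). Most caMNK points (orange) lie within 0.3 of the pBABE mean. caMNK replicate 2 (orange squares) is often the highest or the lowest caMNK point, as for Eif2ak2, Eif6 and Eif4g2.

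**Figure D2:**
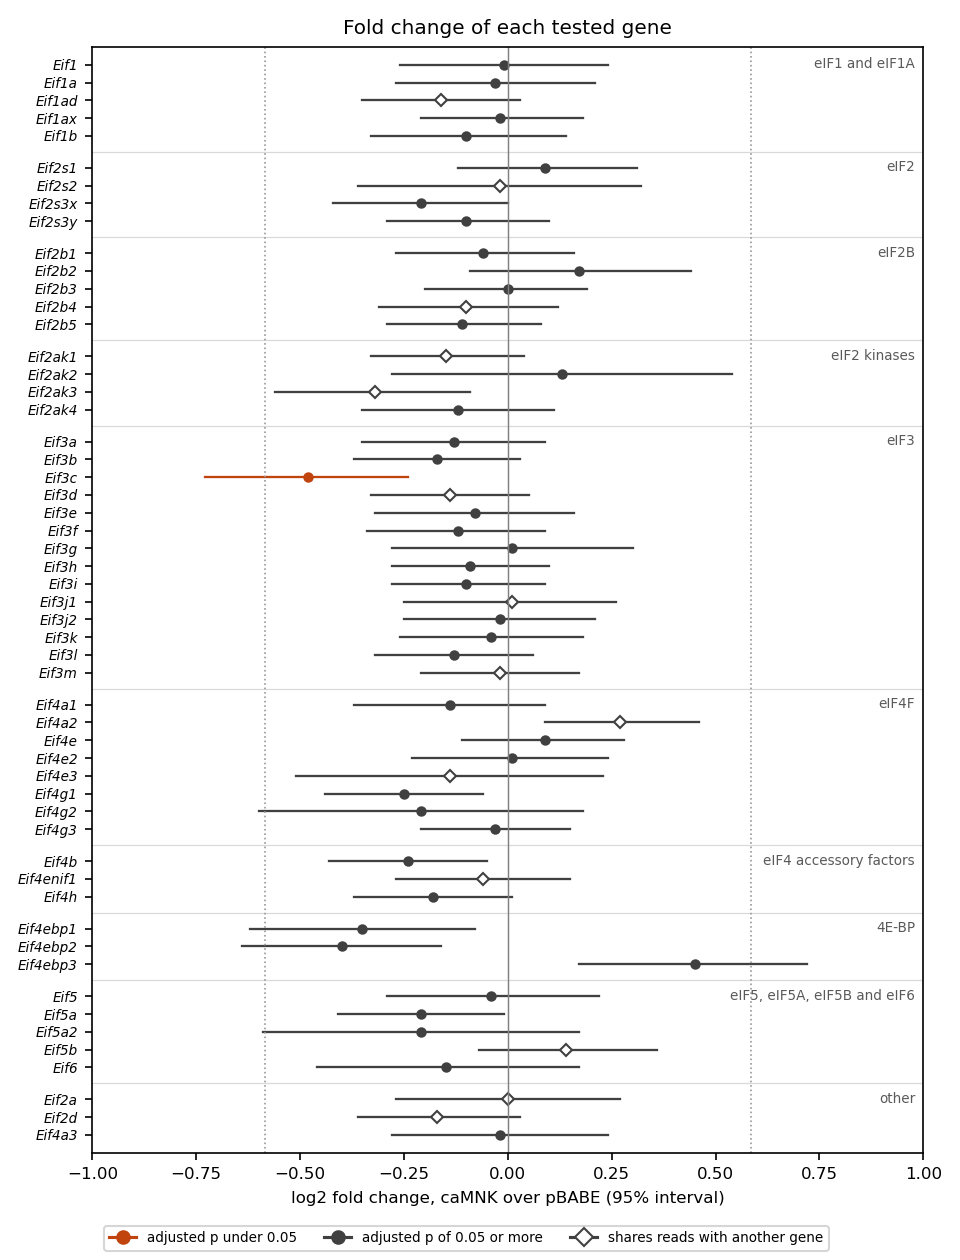
Log2 fold change of caMNK over pBABE (x axis) with its 95% interval for each tested gene, with dotted lines at a 1.5-fold difference. Eif3c is the gene past the adjusted threshold, and the 4E-BP genes lie on both sides of 0, Eif4ebp3 above it and Eif4ebp1 and Eif4ebp2 below.

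The one called gene belongs to eIF3, the largest initiation factor, which binds the small ribosomal subunit and helps bring the mRNA to it. Eif3c (chr7:126546455-126566411, minus strand), which encodes a core subunit of its scaffold, had 394, 473 and 381 CPM in caMNK replicates 1, 2 and 3, against 584 and 578 CPM in pBABE replicates 1 and 2. All 3 caMNK libraries lay below both pBABE libraries, with replicate 2 nearest to them, and Eif3c averaged 416 ± 49.5 CPM in caMNK (SD, n = 3) and 581 ± 4.77 CPM in pBABE (SD, n = 2). Eif3c fell by 28.4% (log2 fold change −0.48, SE 0.107, 95% interval −0.73 to −0.24, edgeR adjusted p = 0.0324). The call was lost when any of 3 libraries was left out in turn. The log2 fold change was −0.49 without pBABE replicate 1 (edgeR adjusted p = 0.258), −0.49 with the other pBABE library left out (0.206) and −0.44 without caMNK replicate 1 (0.144), about as large as with all 5 libraries. Without caMNK replicate 2 the log2 fold change was −0.59 (edgeR adjusted p = 1.64e-05) and without caMNK replicate 3 it was −0.42 (0.0366). These last 2 fits called 29.6% and 10.2% of all tested genes.

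The other eIF3 genes differed less, and none of them passed. Eif3b, the scaffold subunit with an RNA-recognition fold, had 486, 453 and 515 CPM in caMNK, against 543 and 550.4 CPM in pBABE (log2 fold change −0.17, SE 0.0879, 95% interval −0.37 to 0.03, edgeR adjusted p = 0.256). Eif3a, the largest subunit, had 1068, 1237 and 1103 CPM in caMNK, against 1180.4 and 1306 CPM in pBABE, so its groups overlapped (95% interval −0.35 to 0.09). Because subunits of 1 library share its scaling, Eif3c was also set against these partners in raw counts, a measure chosen after the values were seen. Per 100 counts of Eif3a, Eif3c had 36.9, 38.2 and 34.6 in caMNK, against 49.5 and 44.2 in pBABE. Per 100 counts of Eif3b it had 81.0, 104 and 74.0 in caMNK, against 108 and 105 in pBABE, where caMNK replicate 2 lay just below the lower pBABE library. Of 14 eIF3 rows, 12 had a negative log2 fold change, and apart from Eif3c the fold changes ran from −0.17 for Eif3b to 0.01 for Eif3g. Eif3d, the subunit that can bind the cap, shares reads with the antisense gene Gm17638, Eif3j1 with Spg11, and Eif3m lies inside Ccdc73, which has about as many counts. Eif3j1 and Eif3j2 encode near-identical proteins, and reads could have been split between them.

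In eIF4F, the cap-binding subunit that MNK1 phosphorylates hardly differed at the RNA level. Eif4e (chr3:138526179-138559696, plus strand) had 238, 259.5 and 240.3 CPM in caMNK replicates 1, 2 and 3, against 232 and 231 CPM in pBABE replicates 1 and 2. Every caMNK library was higher, but replicates 1 and 3 stood nearer to the pBABE libraries than to replicate 2 (log2 fold change 0.09, SE 0.0843, 95% interval −0.11 to 0.28, edgeR adjusted p = 0.567). Among its relatives, Eif4e2, which encodes the cap-binding repressor 4EHP, had a log2 fold change of 0.01 (95% interval −0.23 to 0.24). Eif4e3 had −0.14 (−0.51 to 0.23) at 8.06 CPM in caMNK and 8.89 CPM in pBABE, and it lies inside Gm20696, whose counts are as high.

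Eif4g1 (chr16:20668313-20692884, plus strand), the scaffold on which MNK1 docks, had 861, 829.7 and 867 CPM in caMNK replicates 1, 2 and 3, against 976 and 1049 CPM in pBABE replicates 1 and 2. The groups did not overlap, but the difference did not pass (log2 fold change −0.25, SE 0.0821, 95% interval −0.44 to −0.06, edgeR adjusted p = 0.0989). Without caMNK replicate 2 the edgeR adjusted p was 0.0252, in a fit that called 29.6% of all tested genes. Eif4g3, the second scaffold gene, had 219, 215 and 217 CPM in caMNK, against 218 and 226 CPM in pBABE, with an interval of −0.21 to 0.15. Eif4g2, whose product DAP5 lacks the eIF4E-binding part, was the most variable gene of the complex, with 1234, 1694 and 1065 CPM in caMNK, against 1532 and 1545 CPM in pBABE. Its caMNK replicates 1 and 3 were below both pBABE libraries and replicate 2 was above them (log2 fold change −0.21, edgeR adjusted p = 0.488; −0.42 and 0.000972 without caMNK replicate 2).

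The paralogous helicase genes had fitted fold changes of opposite sign. Eif4a1, the main eIF4A gene of dividing cells, had 1009, 916 and 1119 CPM in caMNK, against 1124 and 1105 CPM in pBABE, with overlapping groups (log2 fold change −0.14, SE 0.10, 95% interval −0.37 to 0.09, edgeR adjusted p = 0.439). Eif4a2 (chr16:23107444-23114136, plus strand) had 276, 282 and 272 CPM in caMNK replicates 1, 2 and 3, against 227 and 232 CPM in pBABE replicates 1 and 2. Its caMNK libraries were all higher and close to each other, but the difference did not pass (log2 fold change 0.27, SE 0.0800, 95% interval 0.09 to 0.46, edgeR adjusted p = 0.0722). It passed in edgeR without caMNK replicate 2 (adjusted p = 0.00907) and with total-count scaling (0.0402), where 29.6% and 8.59% of all tested genes were called. Eif4a2 hosts small nucleolar RNAs in its introns, but the 5 such rows inside it held between 145 and 302 counts over all libraries, against 48686 for Eif4a2. It overlaps Rfc4 at its end by 194 bases. Per 100 counts of Eif4a1, a ratio without scaling that was chosen after the values were seen, Eif4a2 had 27.4, 30.8 and 24.3 in caMNK, against 20.2 and 21 in pBABE. The 2 helicases are close in sequence, so a share of reads may have been assigned to the wrong one or to neither.

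The 4E-BP genes had fitted differences among the larger ones of the members, Eif4ebp1 and Eif4ebp2 downward and Eif4ebp3 upward, and none was called. Eif4ebp1 (chr8:27260329-27276674, plus strand), which encodes the 4E-BP most studied in tumour cells and is known as a target of the stress factor ATF4, had 104, 93.0 and 123 CPM in caMNK replicates 1, 2 and 3, against 136 and 135 CPM in pBABE replicates 1 and 2. The pBABE libraries were almost equal and every caMNK library was lower, by the least in replicate 3 (log2 fold change −0.35, SE 0.118, 95% interval −0.62 to −0.08, edgeR adjusted p = 0.107). Eif4ebp2 (chr10:61428491-61452661, minus strand), the form that prevails in brain, had 26.3, 30.2 and 25.7 CPM in caMNK replicates 1, 2 and 3, against 34.8 and 37.6 CPM in pBABE replicates 1 and 2. Every caMNK library was again lower, with an adjusted p just above 0.05 (log2 fold change −0.40, SE 0.105, 95% interval −0.64 to −0.16, edgeR adjusted p = 0.0544). Eif4ebp3, the least abundant of the 3 genes in counts, had 8.33, 8.72 and 8.13 CPM in caMNK replicates 1, 2 and 3, against 6.02 and 6.32 CPM in pBABE replicates 1 and 2, and there every caMNK library was higher (log2 fold change 0.45, SE 0.122, 95% interval 0.17 to 0.72, edgeR adjusted p = 0.0598). Its level rests on 239, 424 and 301 counts in caMNK and 251 and 204 in pBABE.

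All 3 genes passed in edgeR without caMNK replicate 2, with adjusted p-values of 0.0221 for Eif4ebp1, 0.000507 for Eif4ebp2 and 0.0197 for Eif4ebp3. That fit called 29.6% of all tested genes. Without caMNK replicate 3, Eif4ebp1 passed (0.0167), with all 5 libraries Eif4ebp2 passed by DESeq2 (0.0330) and Eif4ebp3 with total-count scaling in edgeR (0.0434). Those fits called 10.2%, 10% and 8.59% of all tested genes, in that order. With no filter on low counts, Eif4ebp1 (0.0133) and Eif4ebp2 (0.0105) passed in edgeR, where 10.4% of all tested genes were called. None of the 3 passed with caMNK replicate 1 or either pBABE library left out, where their adjusted p-values were at least 0.181. Their log2 fold changes in those fits were −0.33 to −0.36 for Eif4ebp1, −0.35 to −0.46 for Eif4ebp2 and 0.40 to 0.48 for Eif4ebp3. The balance of a 4E-BP to its target can be read within a library, again as ratios chosen after the values were seen. Per 100 counts of Eif4e, Eif4ebp1 had 43.8, 35.8 and 51.1 in caMNK, against 58.6 and 58.6 in pBABE. Eif4ebp2 had 11.1, 11.7 and 10.7 in caMNK, against 15 and 16.3 in pBABE, and Eif4ebp3 had 3.51, 3.36 and 3.38 in caMNK, against 2.59 and 2.74 in pBABE. In each of the 3 ratios the groups did not overlap, and Eif4ebp3 was the one that was higher in caMNK. For Eif4ebp1 and Eif4ebp2 this was fixed by the levels above and adds no support. Both were lower, and Eif4e higher, in every caMNK library. These are ratios of gene-body counts, not of transcript numbers or of proteins.

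**Figure D3:**
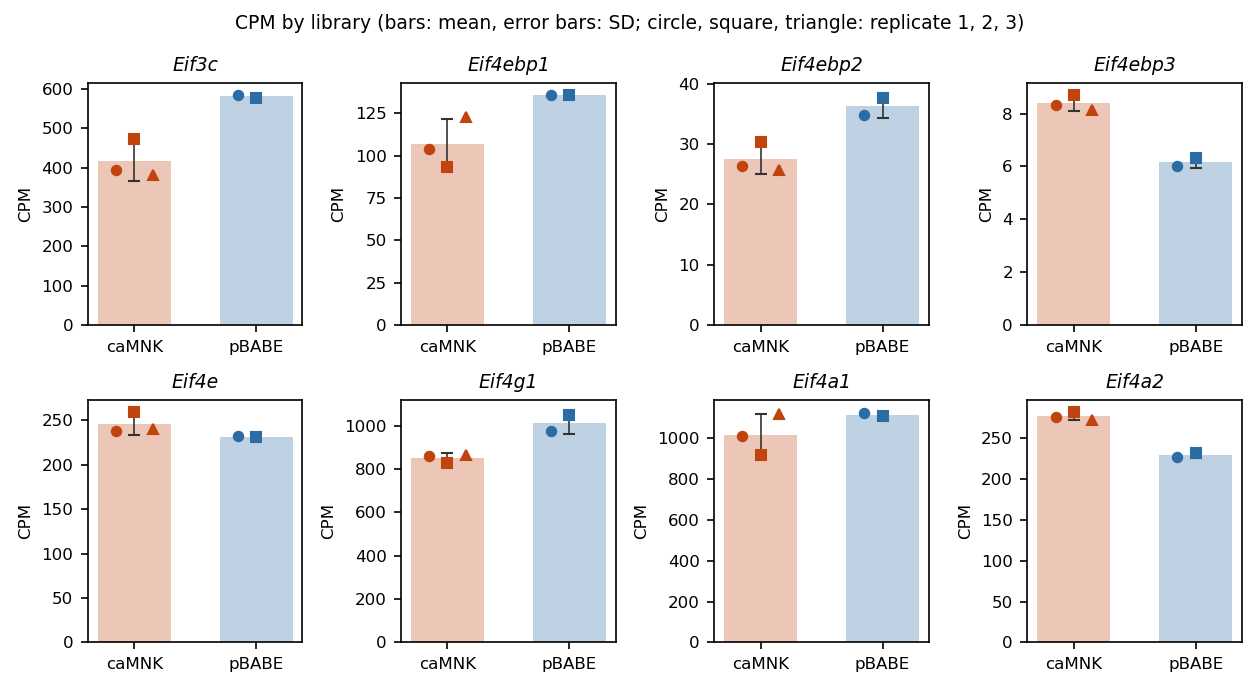
CPM (y axis, from 0) in the caMNK and pBABE libraries for 8 genes, with bars for the mean and error bars for the SD over 3 caMNK and 2 pBABE libraries. Eif3c, Eif4ebp1, Eif4ebp2 and Eif4g1 are lower in each caMNK library, Eif4ebp3, Eif4a2 and Eif4e are higher in each, and the groups overlap for Eif4a1.

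Among the accessory factors of eIF4F, Eif4b and Eif4h were lower in each caMNK library and neither was called. Eif4b, whose product stimulates the helicase, had 658, 643 and 700.0 CPM in caMNK replicates 1, 2 and 3, against 795 and 778 CPM in pBABE replicates 1 and 2. The groups did not overlap (log2 fold change −0.24, SE 0.0827, 95% interval −0.43 to −0.05, edgeR adjusted p = 0.113). Without caMNK replicate 2 the edgeR adjusted p was 0.0337, in a fit that called 29.6% of all tested genes. Eif4h, a factor related to eIF4B, had 320.2, 295 and 315 CPM in caMNK, against 352 and 350.0 CPM in pBABE, likewise without overlap (log2 fold change −0.18, SE 0.0826, 95% interval −0.37 to 0.01, edgeR adjusted p = 0.213). Eif4enif1, which encodes the eIF4E transporter 4E-T, had a log2 fold change of −0.06. It lies wholly inside Drg1, whose counts are more than its own, so its value is uncertain.

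No gene of eIF2 or of its exchange factor was called, and their log2 fold changes ran from −0.21 for Eif2s3x to 0.17 for Eif2b2. Eif2s1, the alpha subunit that the stress kinases phosphorylate, had 239, 264 and 225 CPM in caMNK replicates 1, 2 and 3, against 229 and 227 CPM in pBABE replicates 1 and 2, with overlapping groups (log2 fold change 0.09, SE 0.0936, 95% interval −0.12 to 0.31, edgeR adjusted p = 0.583). Of the gamma subunit genes, the X-linked Eif2s3x had 206, 225 and 193 CPM in caMNK, against 242 and 238 CPM in pBABE (log2 fold change −0.21, SE 0.0927, 95% interval −0.42 to 0.00, edgeR adjusted p = 0.20; adjusted p = 0.00753 without caMNK replicate 2). The Y-linked Eif2s3y had 41.1, 44.1 and 41.2 CPM in caMNK, against 45.9 and 44.1 CPM in pBABE, and both were lower in every caMNK library, by under 15% in the fit. Eif2s2, the beta subunit gene, lies inside the span of the agouti gene a, which has more counts, and had 392, 564 and 413 CPM in caMNK, against 473 and 453 CPM in pBABE. In eIF2B, Eif2b5, the catalytic subunit gene, had 83.8, 88.2 and 84.1 CPM in caMNK, against 91.9 and 91.8 CPM in pBABE (log2 fold change −0.11, SE 0.0806, 95% interval −0.29 to 0.08, edgeR adjusted p = 0.457). Eif2b2, a regulatory subunit gene, had 79.5, 67.6 and 87.5 CPM in caMNK, against 67.6 and 71.0 CPM in pBABE (log2 fold change 0.17, SE 0.116, 95% interval −0.09 to 0.44, edgeR adjusted p = 0.392; adjusted p = 0.0126 without caMNK replicate 2). The fit without caMNK replicate 2, cited here for Eif2s3x and Eif2b2, called 29.6% of all tested genes. The other eIF2B genes had fold changes between −0.10 for Eif2b4, which shares reads with Snx17, and 0.00 for Eif2b3.

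The 4 eIF2 kinases answer different stresses, and none passed. Eif2ak3, which encodes PERK, the sensor of unfolded proteins in the endoplasmic reticulum, had 14.8, 14.3 and 13.2 CPM in caMNK replicates 1, 2 and 3, against 17.8 and 17.5 CPM in pBABE replicates 1 and 2. All caMNK libraries were lower (log2 fold change −0.32, SE 0.104, 95% interval −0.56 to −0.09, edgeR adjusted p = 0.0897; adjusted p = 0.0162 without caMNK replicate 2, where 29.6% of all tested genes were called). Eif2ak3 shares reads with Gm43292, a short gene inside it with 15.8% of its counts. Eif2ak1, which encodes the haem-regulated kinase HRI, had 60.6, 60.9 and 61.0 CPM in caMNK, against 64.8 and 69.8 CPM in pBABE (log2 fold change −0.15, SE 0.0826, 95% interval −0.33 to 0.04, edgeR adjusted p = 0.310), and it shares reads with Aimp2 and Ankrd61. Eif2ak4, which encodes GCN2, the sensor of uncharged tRNA, had 28.7, 30.3 and 25.7 CPM in caMNK, against 30.2 and 31.2 CPM in pBABE, with overlapping groups (95% interval −0.35 to 0.11). Eif2ak2, which encodes PKR, an interferon-induced kinase that binds double-stranded RNA, had 148, 213 and 135 CPM in caMNK, against 161 and 141 CPM in pBABE. Its high value was that of caMNK replicate 2, and replicates 1 and 3 lay within or below the pBABE range (95% interval −0.28 to 0.54).

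None of the remaining factors was called. In the class of eIF1 and eIF1A genes, grouped by symbol, Eif1 had a log2 fold change of −0.01, Eif1a −0.03 and Eif1ax −0.02. The pair with the lowest p in that class was Eif1ad, with 58.5, 56.8 and 62.2 CPM in caMNK, against 64.8 and 67.5 CPM in pBABE (log2 fold change −0.16, SE 0.0855, 95% interval −0.35 to 0.03, edgeR adjusted p = 0.280), and Eif1b, with 22, 22.7 and 25.2 CPM in caMNK, against 25.7 and 24.1 CPM in pBABE (log2 fold change −0.10, SE 0.103, 95% interval −0.33 to 0.14, edgeR adjusted p = 0.603). Eif1ad shares reads with Banf1. Eif5a, whose product carries the hypusine residue and aids elongation, had 885, 892 and 989 CPM in caMNK, against 1069.5 and 1059 CPM in pBABE, without overlap (log2 fold change −0.21, SE 0.0871, 95% interval −0.41 to −0.01, edgeR adjusted p = 0.177). Eif5b, the GTPase that joins the subunits, had 402, 463 and 404 CPM in caMNK, against 378 and 388 CPM in pBABE. Every caMNK library was higher, most of all replicate 2 (log2 fold change 0.14, SE 0.0940, 95% interval −0.07 to 0.36, edgeR adjusted p = 0.380), and Eif5b shares reads with Rev1. Eif5, the gene of the eIF2 GTPase activator, had a log2 fold change of −0.04, Eif5a2 −0.21 and the ribosome anti-association factor gene Eif6 −0.15, each with overlapping groups. Of the factors outside these complexes, Eif2d, a tRNA-delivery factor, had 36.1, 34.6 and 36.0 CPM in caMNK, against 39.5 and 40.2 CPM in pBABE (log2 fold change −0.17, SE 0.0852, 95% interval −0.36 to 0.03, edgeR adjusted p = 0.261) and shares reads with Rassf5, and Eif4a3, a helicase of the exon junction complex, had 159, 133 and 171 CPM in caMNK, against 156 and 157 CPM in pBABE (log2 fold change −0.02, SE 0.114, 95% interval −0.28 to 0.24, edgeR adjusted p = 0.925). Eif2a, which overlaps Serp1, had a log2 fold change of 0.00.

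One library set much of the spread. caMNK replicate 2 was the highest or the lowest of the 3 caMNK libraries for 49 of 54 members, 27 times the highest and 22 times the lowest. This is 90.7% of the members, near the 81.0% of all tested genes and the 87.3% of those at a mean log2 CPM of 5 or more. For 37 members (68.5%) its distance to the nearer of replicates 1 and 3 was more than their distance to each other, which held for 50.7% of all tested genes and 59.3% of those at a mean log2 CPM of 5 or more. It stood above the mean of replicates 1 and 3 by 0.59 on the log2 scale for Eif2ak2 and 0.56 for Eif4g2, and its difference was −0.41 for Eif6 and −0.35 for Eif3g. It is also the library with the most counts. Without it, 3 members rose and 10 fell (24.1% of the members), where 29.6% of all tested genes were called in the same fit. The rises were Eif4ebp3, Eif4a2 and Eif2b2. The falls were Eif3c, Eif4ebp1, Eif4ebp2, Eif4g1, Eif4g2, Eif4b, Eif2s2, Eif2s3x, Eif2ak3 and Eif5a2. No member was called when pBABE replicate 1, pBABE replicate 2 or caMNK replicate 1 was left out, fits in which 0.132%, 0.31% and 1.51% of all tested genes were called. Without caMNK replicate 3, Eif3c and Eif4ebp1 fell, and 10.2% of all tested genes were called.

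**Figure D4:**
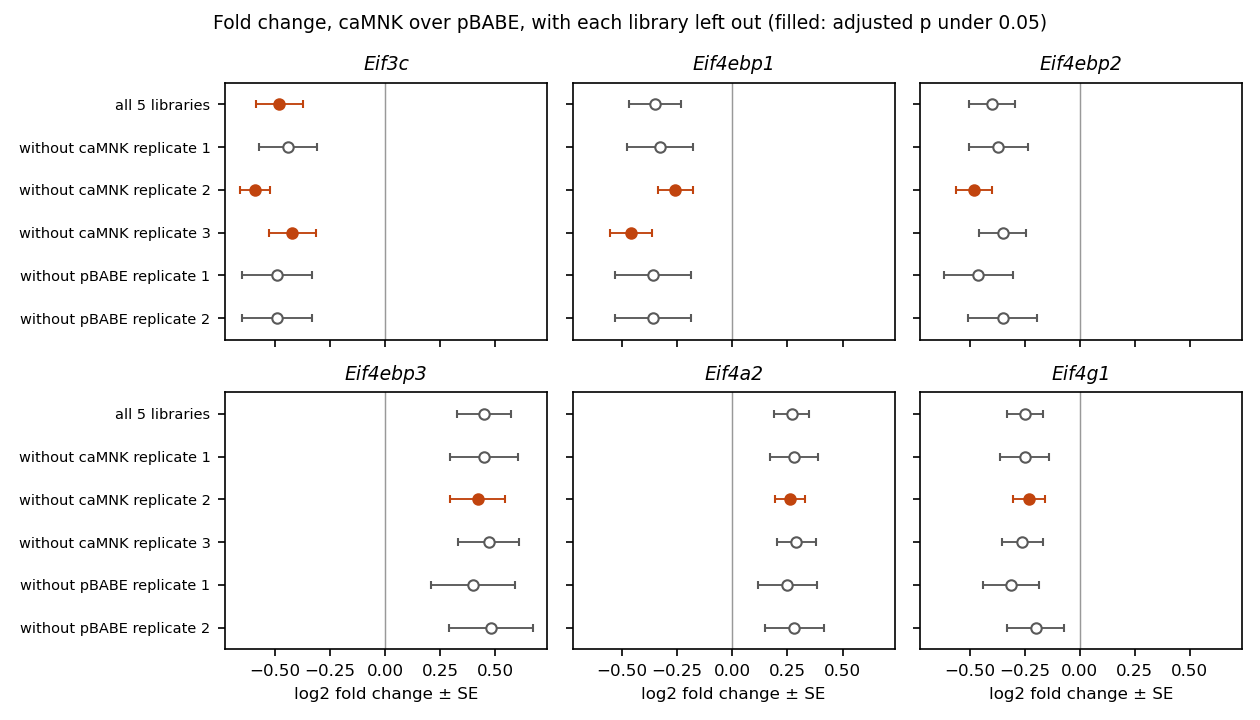
Log2 fold change of caMNK over pBABE (x axis) with its SE for 6 genes, with all 5 libraries (top row of each panel) and with each library left out. Filled points passed the adjusted threshold, which Eif3c did in 3 of the 6 fits. Eif4ebp1 passed without caMNK replicate 2 and without caMNK replicate 3, and Eif4ebp2, Eif4ebp3, Eif4a2 and Eif4g1 passed without caMNK replicate 2.

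Other genes of translation were set beside the members. Of 36 tested partners and regulators of initiation, 3 rose and 0 fell (8.33%, beside 7.94% of all genes), with a median log2 fold change of −0.09. At an unadjusted p under 0.05 in edgeR, 5 were higher and 6 lower. Besides the introduced Mknk1, the rises were Impact, which encodes an inhibitor of GCN2 signalling, with 62.3, 67.5 and 56.7 CPM in caMNK, against 44.1 and 47.4 CPM in pBABE (log2 fold change 0.44, SE 0.102, 95% interval 0.21 to 0.68, edgeR adjusted p = 0.0359), and Mcts1, which encodes a partner of the reinitiation factor DENR, with 32.7, 34.0 and 25.0 CPM in caMNK, against 20.7 and 19.8 CPM in pBABE (log2 fold change 0.59, SE 0.141, 95% interval 0.27 to 0.92, edgeR adjusted p = 0.0401). Gcn1l1, which encodes the GCN2 activator GCN1, had 129, 127 and 120.4 CPM in caMNK, against 150.4 and 166 CPM in pBABE and did not pass (edgeR adjusted p = 0.0527). Of 13 elongation and release factor genes, 1 fell and 0 rose (0 were higher at an unadjusted p under 0.05). The fall was in Eef2k, the kinase gene of elongation factor eEF2, with 16.7, 18.0 and 17.1 CPM in caMNK, against 29.1 and 27.2 CPM in pBABE (log2 fold change −0.71, SE 0.0964, 95% interval −0.93 to −0.49, edgeR adjusted p = 0.00748). Eef1g, Hbs1l and Eef2, the next by p, had log2 fold changes of −0.25, −0.23 and −0.26 with adjusted p-values of 0.0873, 0.113 and 0.187 in edgeR. Of 87 cytosolic ribosomal protein genes, 0 were called and 1 had an unadjusted p under 0.05, with a median of 0.00 in edgeR.

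Several known outputs of eIF2 alpha phosphorylation fell. Of 16 tested genes of the integrated stress response, 7 fell and 1 rose (50% called, beside 7.94% of all tested genes). Their median log2 fold change was −0.40, with 13 negative and 3 positive. Slc7a5, an amino acid transporter gene, had 148, 181 and 164 CPM in caMNK, against 291 and 279 CPM in pBABE (log2 fold change −0.79, SE 0.102, 95% interval −1.03 to −0.56, edgeR adjusted p = 0.00635), and in serine synthesis Psat1 had a log2 fold change of −0.71 and Phgdh of −0.66 (edgeR adjusted p = 0.00748 for both). Nupr1, a stress-induced chromatin gene, was the one that rose (0.63, edgeR adjusted p = 0.00900). Atf4 was not called (log2 fold change −0.29, edgeR adjusted p = 0.0926). Ddit3 was higher in each caMNK library and was not called either (0.37, edgeR adjusted p = 0.1785). Earlier results of these data already showed the fall of this pathway. Of the members that act ahead of these outputs, the 4 eIF2 kinase genes and 5 eIF2B genes, none was called, where 7.94% of all tested genes were.

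**Figure D5:**
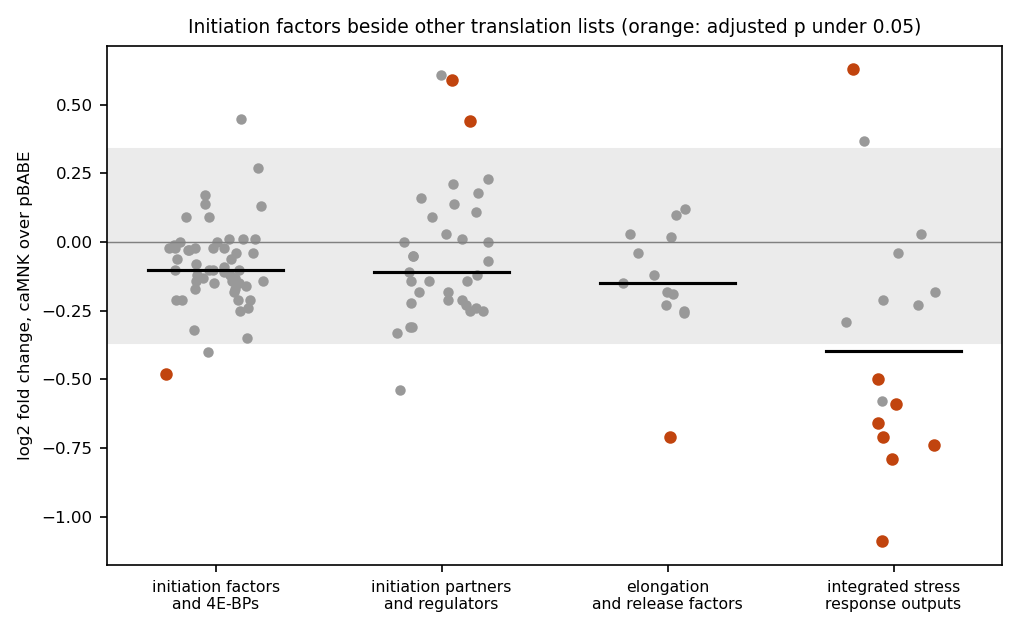
Log2 fold change of caMNK over pBABE (y axis) of each tested gene in 4 lists, with the median of each list as a black line. The grey band runs from −0.37 to 0.34, the 5th to 95th percentiles of tested genes whose mean log2 CPM is 5 or more, and Mknk1 is left out of the second list, plot and line. Of the initiation factor genes, all but Eif3c, Eif4ebp2 and Eif4ebp3 lie in the band, and the 7 stress response genes that fell lie below it.

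The promoters give a feature of these genes that their selection did not use. RefSeq entries (GRCm38.p6) were found for 44 of 56 members, with 57 start sites, and the 250 bases before each start were searched on both strands. The E-box CACGTG, a site of MYC, was in 11 of these windows (19.3%), beside 6.02% of all 32851 windows. The ETS core CGGAAG was in 21 (36.8%, beside 13.6%) and the GC box GGGCGG in 38 (66.7%, beside 32.7%). The ATF4-type core TGATGNAA was in 1, that of Eif2s3x (1.75%, beside 3.45%), and the cyclic AMP element TGACGTCA in 0 (1.55% of all). These are letter matches, not shown to be bound. A gene with several start sites is counted at each. The 32851 windows were neither limited to tested genes nor matched for base composition. The higher shares are therefore not shown to be particular to the members. The windows of Eif3c (chr7:126566367-126566616, minus strand), which fell, of Eif4ebp2 (chr10:61452670-61452919, minus strand) and of Eif4a2 (chr16:23107218-23107467, plus strand), whose differences ran in opposite directions, and of 1 of the 2 start sites of Eif4e (chr3:138527018-138527267, plus strand) are shown with these matches in capitals. The first 3 hold ETS and GC-box letters, which overlap in the Eif4a2 window, and that of Eif4e holds 2 E-boxes, while its other listed start site holds none of the motifs.
Eif3c: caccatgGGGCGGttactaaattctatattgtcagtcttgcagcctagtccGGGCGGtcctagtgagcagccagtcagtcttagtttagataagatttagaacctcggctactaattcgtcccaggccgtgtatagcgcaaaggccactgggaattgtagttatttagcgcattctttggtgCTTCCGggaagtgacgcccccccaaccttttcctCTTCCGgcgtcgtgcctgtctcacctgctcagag
Eif4ebp2: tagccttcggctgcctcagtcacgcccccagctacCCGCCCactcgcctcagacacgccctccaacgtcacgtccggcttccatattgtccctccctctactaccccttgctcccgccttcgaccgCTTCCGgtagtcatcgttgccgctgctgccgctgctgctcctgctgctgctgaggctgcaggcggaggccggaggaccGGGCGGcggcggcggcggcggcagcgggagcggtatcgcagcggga
Eif4a2: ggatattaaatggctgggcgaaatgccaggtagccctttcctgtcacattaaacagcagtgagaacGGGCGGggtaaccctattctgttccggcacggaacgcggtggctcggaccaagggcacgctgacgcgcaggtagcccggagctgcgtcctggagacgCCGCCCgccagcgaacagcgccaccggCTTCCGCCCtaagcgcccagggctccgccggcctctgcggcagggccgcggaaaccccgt
Eif4e: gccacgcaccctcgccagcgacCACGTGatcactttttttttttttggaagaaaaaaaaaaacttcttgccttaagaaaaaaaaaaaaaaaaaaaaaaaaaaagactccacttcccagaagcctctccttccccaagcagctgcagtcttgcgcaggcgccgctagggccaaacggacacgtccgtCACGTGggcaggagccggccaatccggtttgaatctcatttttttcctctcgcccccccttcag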

How the data were processed

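Libraries were made with a TruSeq Stranded Total RNA kit, per the labels' protocols. The tools named in the submitters' processing notes are STAR 2.5.3 and featureCounts 1.5.3, with build mm10, besides Trimmomatic 0.32, FastQC 0.11.2, DESeq2 and SAMtools 0.1.19. The authors deposited raw read counts per gene symbol and a gene length, 1 table per library. Neither the annotation nor any counting option is given in the sources used here. Spans and overlaps come from GENCODE M21, on the same build. Here, edgeR 4.0.16 in R 4.3.3 was run on the deposited counts of all genes: filterByExpr, TMM scaling, a robust quasi-likelihood F test with group as the only term, and Benjamini-Hochberg adjustment over 17026 genes at 0.05. An SE was taken as the absolute log2 fold change divided by √F, and a 95% interval uses the test's degrees of freedom, unadjusted. CPM use the scaled totals. Levels of different genes were not compared as transcript numbers, since the lengths include introns. Rankings and ratios between genes are of gene-body counts or CPM. Every pair of libraries differed by more than sampling noise (chi-square per degree of freedom of 5.94 or more). Alternatives were other scalings, filters and tools (DESeq2 1.42.0, limma-voom of limma 3.58.1), a replicate block and each library left out. Genes given library by library are those called, the 2 of lowest p in each complex and a fixed set of eIF4F, 4E-BP and eIF2 genes; of other lists, the 4 of lowest p. Eif3a, Eif4g2, Eif4g3, Eif2s2, Eif2ak2 and Eif2ak4 were added after their values were seen. The members and lists were chosen with earlier results of these data known.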

Additional observations from a re-analysis of the deposited data

How the results depend on the processing

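With all 5 libraries, 0 members rose and 1 fell among 753 rises and 599 falls of all genes, and no member's call changed direction under any alternative run. Total-count scaling gave 2 member rises. Without a filter on low counts 3 members fell (Eif3c, Eif4ebp1 and Eif4ebp2), with 1591 rises and 1330 falls over the 27978 genes tested in that fit. DESeq2 gave 2 member falls. Without the genes that share reads, members among them, 40 members were tested and 1 was called, the fall of Eif3c (2.5%). Of the 10605 genes tested in that fit, 410 rose and 305 fell (6.74%). With 1 library left out, member rises ran from 0 to 3 and falls from 0 to 10, and all genes gave 11 to 2325 rises and 12 to 2617 falls. The top of each range came without caMNK replicate 2; without a pBABE library the lone pBABE library is assumed to vary like the caMNK ones. With the replicate number as a block, 1 member rose (Eif4ebp3) and 3 fell (Eif3c, Eif4ebp1 and Eif4ebp2), which is 7.41% of the members. In that fit 1477 genes rose and 1231 fell in all, 15.9% of all tested genes. Only 2 numbers are shared, and the deviations of the same-numbered libraries had correlations of −0.214 for number 1 and 0.003 for number 2, so the number was not taken as a pairing. The cause of these shifts was not tested. Eif4ebp3, with 204 to 424 counts per library, had the fewest counts of the tested members.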

Other observations

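The pseudogene row Eif4a-ps4, set aside by the suffix, had 61.2, 55.0 and 58.2 CPM in caMNK, against 70.1 and 70.2 CPM in pBABE. All 3 caMNK libraries were lower, the direction also fitted for Eif4a1, and reads of near-identical copies cannot be assigned with certainty. The other 6 pseudogene rows stayed under 0.5 CPM in each library.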
